A study of Arabidopsis thaliana with 18 samples.

Results

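Progress through mitosis and cytokinesis was followed at the RNA level through 43 Arabidopsis thaliana genes, picked by locus identifier from the 32833 loci measured in each library. They comprised 14 mitotic cyclin genes of the CYCB1, CYCB2, CYCB3, CYCA1 and CYCA2 types, 4 B-type cyclin-dependent kinase genes, 4 MYB3R transcription factor genes, 7 genes for activators and inhibitors of the anaphase-promoting complex (APC/C), 3 spindle checkpoint genes, 6 genes for Aurora kinases and the spindle, and 5 genes for the phragmoplast and cytokinesis. The list names loci and sets no threshold on a measured value, but it was chosen with earlier results of these data known. Comparisons of its members with all genes are therefore descriptive. RNA-seq was done on 18 libraries from whole 4-day-old seedlings grown on 1/2 MS medium. The groups were the cry2-1 mutant given 30 min of blue light at 30 μmol·m-2·s-1 after darkness (cry2_blue, n = 3), Col-0 wild type given the same light (WT_blue, n = 3), cry2-1 kept in darkness (cry2_dark, n = 3), the quadruple mutant fkd1 fl1-2 fl2 fl3 kept in darkness (labelled flΔ4 and written flΔ4_dark here, n = 3) and Col-0 kept in darkness (WT_dark, n = 6). CRY2 encodes a blue-light receptor, and FKD1 is the founding gene of the FORKED family of vein-patterning genes. The study set cry2 against wild type in darkness and after blue light, and flΔ4 against wild type in darkness. The dark wild-type libraries are numbered 1 to 6, and no label says which of them belong with which mutant. Here libraries 1-3 were set against cry2 and the blue-light groups, libraries 4-6 against flΔ4, and calls against the other set are given as well for the 43 genes and for a second list of mitosis genes.

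In plant cells the B-type kinases, which are particular to plants, act with A-type and B-type cyclins to drive the transition from G2 into mitosis. Many genes used at this stage carry a mitosis-specific activator (MSA) element with the core AACGG, to which MYB3R factors bind. MYB3R4 and MYB3R1 act as activators, MYB3R3 and MYB3R5 as repressors, and MYB3R1 can also repress. Exit from mitosis depends on destruction of cyclins by the APC/C under its activators CDC20 and CCS52, restrained by OSD1 and UVI4, and division ends with a cell plate that KNOLLE-dependent vesicle fusion builds within the phragmoplast. In a dark-grown seedling, dividing cells are few and sit in the root meristem, the shoot apex and the stomatal lineage.

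The MSA core was searched, as AACGG on either strand (CCGTT on the strand written), in the 300 bases from 250 before to 50 after each gene's annotated start in RefSeq's TAIR10.1 sequence; the start base itself is counted as 0. All 43 genes matched the annotation. The core was present in 26 of 43 promoters (60.5%), against 6765 of 27443 protein-coding promoters (24.7%), and at least 2 copies stood in 16 (37.2%), against 4.89% of protein-coding promoters. Cyclin promoters held it in 10 of 14 genes, and B-type kinase promoters in 1 of 4. The 6 promoters shown belong to genes whose levels are described further on and hold between 2 and 5 copies. Capitals mark the core on either strand.
CYCB1;2 chr5:1861654-1861953 minus strand: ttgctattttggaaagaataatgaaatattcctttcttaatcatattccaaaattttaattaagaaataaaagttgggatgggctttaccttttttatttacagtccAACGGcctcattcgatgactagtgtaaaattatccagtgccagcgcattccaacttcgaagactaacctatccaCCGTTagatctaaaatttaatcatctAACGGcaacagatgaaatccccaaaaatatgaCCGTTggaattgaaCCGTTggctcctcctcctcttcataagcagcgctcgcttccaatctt
KNOLLE chr1:2710951-2711250 minus strand: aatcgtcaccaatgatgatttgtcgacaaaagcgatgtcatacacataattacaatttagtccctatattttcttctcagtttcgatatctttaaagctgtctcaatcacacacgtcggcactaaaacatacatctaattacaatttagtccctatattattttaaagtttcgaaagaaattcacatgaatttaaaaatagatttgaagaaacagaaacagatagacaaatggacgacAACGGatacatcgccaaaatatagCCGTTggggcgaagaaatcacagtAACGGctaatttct
CYCB2;3 chr1:7137779-7138078 minus strand: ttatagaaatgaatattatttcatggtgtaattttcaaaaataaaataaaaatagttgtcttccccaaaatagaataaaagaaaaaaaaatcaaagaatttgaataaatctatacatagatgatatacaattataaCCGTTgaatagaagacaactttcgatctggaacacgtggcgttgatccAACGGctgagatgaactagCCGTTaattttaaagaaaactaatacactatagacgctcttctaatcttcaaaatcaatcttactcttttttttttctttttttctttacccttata
CYCB1;3 chr3:3627224-3627523 minus strand: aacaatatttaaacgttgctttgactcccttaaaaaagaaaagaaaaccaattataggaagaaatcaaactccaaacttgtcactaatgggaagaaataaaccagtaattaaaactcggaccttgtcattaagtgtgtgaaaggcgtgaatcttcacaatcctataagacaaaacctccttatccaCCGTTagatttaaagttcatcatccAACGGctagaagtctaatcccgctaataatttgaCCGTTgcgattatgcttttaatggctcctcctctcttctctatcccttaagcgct
MAP65-3 chr5:20964488-20964787 minus strand: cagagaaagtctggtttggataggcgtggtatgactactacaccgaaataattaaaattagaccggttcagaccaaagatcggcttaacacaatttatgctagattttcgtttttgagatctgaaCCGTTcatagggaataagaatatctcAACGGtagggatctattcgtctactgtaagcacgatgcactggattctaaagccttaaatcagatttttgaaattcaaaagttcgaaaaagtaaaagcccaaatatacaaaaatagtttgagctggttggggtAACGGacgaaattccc
CDC20.2 chr4:16043500-16043799 minus strand: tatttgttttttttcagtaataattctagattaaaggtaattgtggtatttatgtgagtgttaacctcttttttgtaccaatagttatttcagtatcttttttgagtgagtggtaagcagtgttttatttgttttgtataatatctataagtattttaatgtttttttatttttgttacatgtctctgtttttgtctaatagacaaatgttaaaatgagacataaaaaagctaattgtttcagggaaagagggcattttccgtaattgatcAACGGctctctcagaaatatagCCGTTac
CYCB1;2 had 5 copies, of which 4 began 143, 69, 43 and 11 bases upstream of the start and 1 began 3 bases downstream. In CYCB2;3 all 3 copies lay 47 to 114 bases upstream, in CYCB1;3 all 3 lay 5 to 64 bases upstream, and in CDC20.2 both lay downstream, in the transcribed part. A match is a description of these letters and not evidence of binding.

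**Figure D1:**
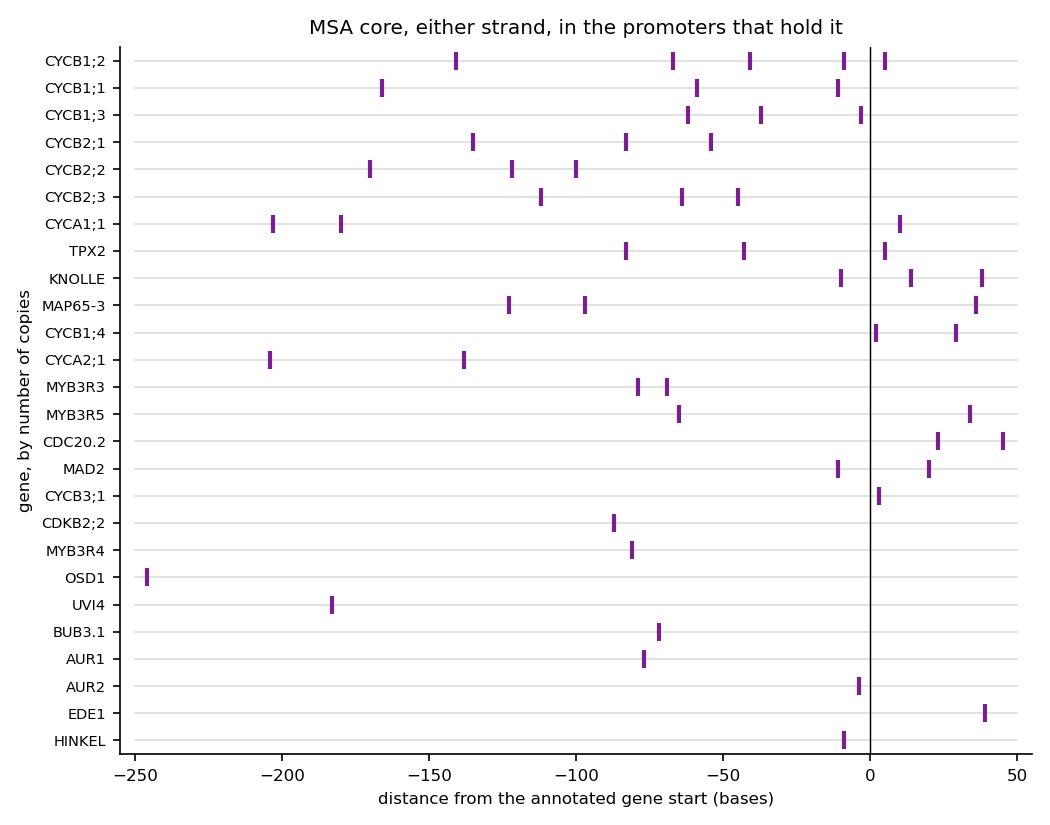
Position of each MSA core (AACGG on either strand, ticks) relative to the annotated gene start (0, in bases, negative upstream) in the 26 promoters that hold it, ordered by the number of copies. CYCB1;2 has 5 copies, and the promoters with 3 copies are mostly those of cyclin genes.

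Values are TPM, each gene's share of a library's transcripts after scaling for gene length, so levels of different genes can be compared. Read totals are not kept in TPM, so the depth of each library is unknown. The values of a library summed to between 997143 and 998279 TPM, and 18493 to 19645 loci reached 1 TPM. CRY2 itself stood at 0.03 to 0.06 TPM in cry2_blue and 0 TPM in cry2_dark, against 73.3 to 90.6 TPM in WT_blue and 99.8 to 110 TPM in WT_dark 1-3, as the labels require. Its neighbours c-NAD-MDH1 and AT1G04420 were at 0 TPM in cry2_dark too and at most 0.22 TPM in cry2_blue. In WT_dark 1-3 c-NAD-MDH1 stood at 768 to 832 TPM and AT1G04420 at 59.8 to 63.6 TPM. In WT_blue they stood at 551 to 680 TPM and 59.4 to 104 TPM. Loss of CRY2 and loss of these neighbours therefore cannot be told apart in differences between cry2 and wild type. For flΔ4 a gene-level value of FKD1 does not check the genotype, and its values overlapped those of the wild type. The library names in the file headers put both blue groups under 1 prefix, and WT_dark 1-3, cry2_dark and WT_dark 4-6 with flΔ4_dark under 3 others. No source explains the prefixes, so light and prefix cannot be told apart, and cry2_dark and WT_dark 1-3 differ in prefix as well. Transcripts of the 4 annotated rRNA loci took 9565 to 12665 TPM in cry2_dark. In the dark wild type they took between 41040 and 48180 TPM (libraries 1-3) or between 6550 and 7907 TPM (libraries 4-6). Nothing in the labels says that libraries of a group came from separate cultures, so p-values here measure the spread between these libraries, and in whole seedlings fewer dividing cells and less RNA per dividing cell cannot be told apart.

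The mitotic genes were expressed at low to moderate levels, with means over the 18 libraries of 0.458 TPM (CYCA2;1) to 22.2 TPM (KNOLLE) and a median of 4.75 TPM. Only 6 averaged over 10 TPM, 13 averaged 5 to 10 TPM and 23 averaged 1 to 5 TPM. CYCA2;1, at 0.14 to 0.86 TPM, lay below the 1 TPM mean needed for testing, so 42 of 43 were tested in most comparisons. Summed over the 43 genes, transcripts came to 292, 291 and 251 TPM in cry2_blue and 198, 211 and 216 TPM in WT_blue. Dark libraries gave 326, 366 and 357 TPM in cry2_dark, 186, 167 and 266 TPM in flΔ4_dark, 287, 277 and 315 TPM in WT_dark 1-3 and 289, 299 and 265 TPM in WT_dark 4-6. The sum was therefore highest in dark cry2 and lowest in 2 of the 3 flΔ4 libraries and in wild type after blue light. The 4 B-type kinases summed to between 26.8 and 31.9 TPM in cry2_blue and between 21.7 and 28.2 TPM in WT_blue. In darkness their sum was between 58.4 and 66.0 TPM in cry2_dark, between 54.0 and 61.0 TPM in WT_dark 1-3 and only between 30.6 and 35.3 TPM in WT_dark 4-6.

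**Figure D2:**
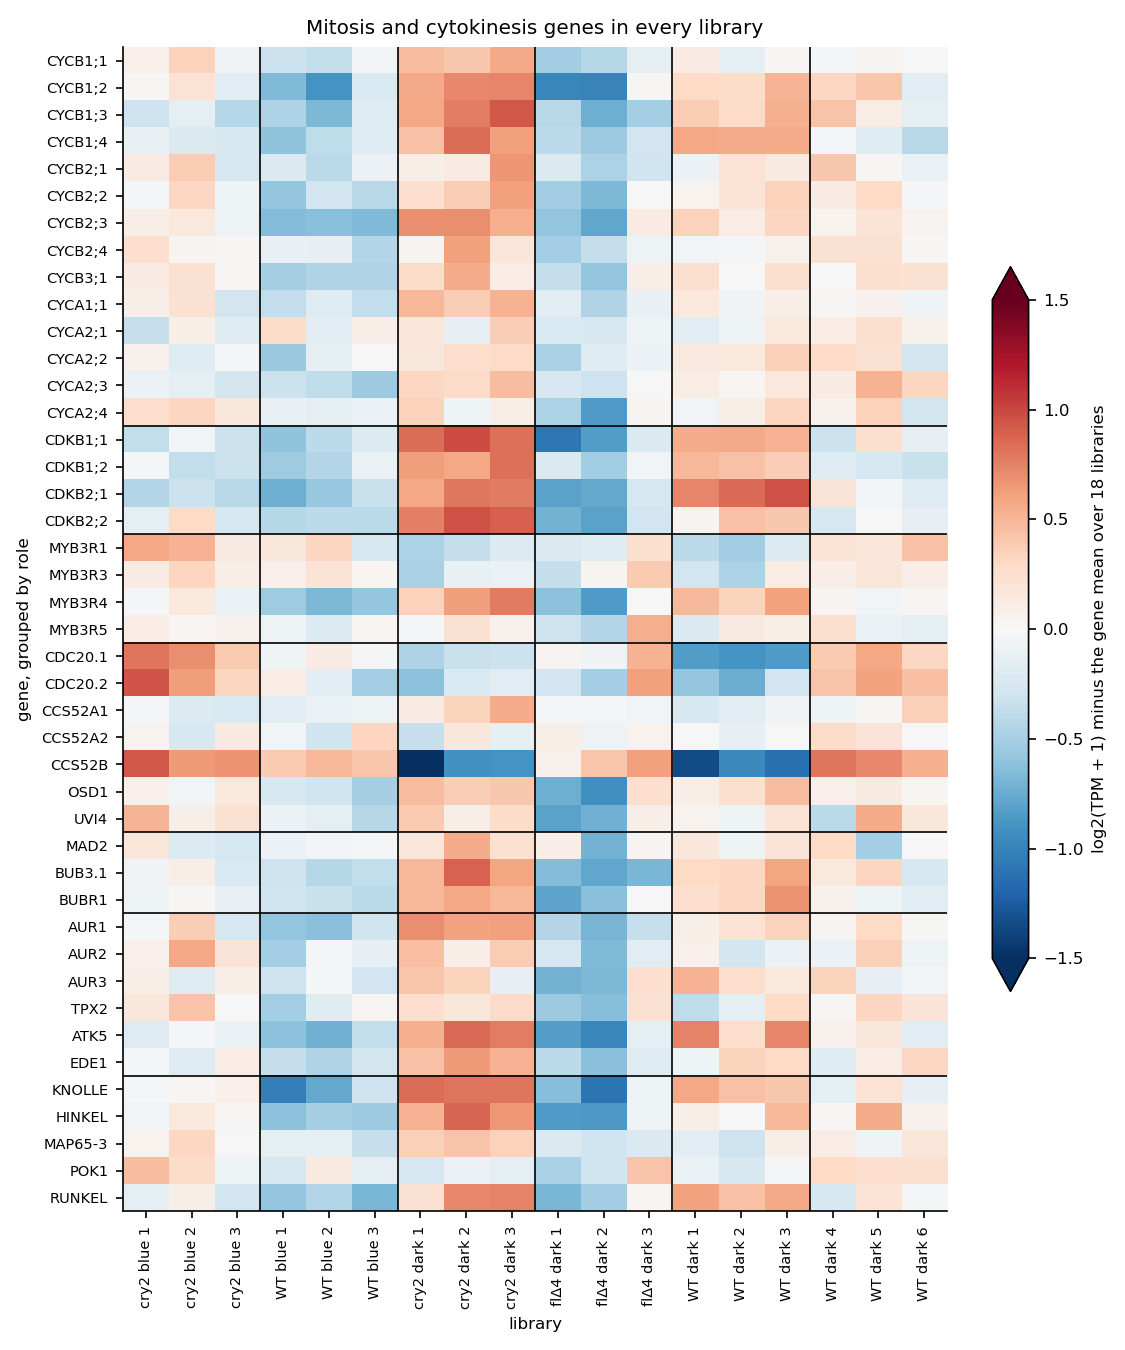
Level of each of the 43 genes (rows, grouped by role) in each of the 18 libraries (columns) as log2(TPM + 1) minus the gene's mean over the libraries. Most cyclin, B-type kinase and cytokinesis genes are above their mean in cry2_dark and below it in WT_blue and in flΔ4_dark 1 and 2, while CCS52B, CDC20.1, CDC20.2 and MYB3R1 run the other way in cry2_dark and WT_dark 1-3.

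Wild type after blue light had lower levels of most mitotic genes than WT_dark 1-3. By limma on log2(TPM + 1), with Benjamini-Hochberg adjusted p under 0.05 over all genes tested as the call, 24 of 42 fell and 3 rose, where 32.9% of the 19985 genes tested fell and 28.7% rose. The members' median log2 change was -0.52, against -0.04 for all genes tested. All 4 B-type kinases fell, as did 9 of 13 cyclins, 3 of 5 cytokinesis genes, 2 of 3 checkpoint genes and 4 of 6 Aurora and spindle genes; CCS52B, CDC20.1 and MYB3R1 rose. Against WT_dark 4-6 the same blue libraries gave 16 lower and 0 higher members of 42. Of the 19888 genes tested there, 29.1% were called, 3989 lower and 1805 higher, and the median was -0.35 for the members and -0.17 for all genes. None of the 3 members that rose against WT_dark 1-3 rose against WT_dark 4-6.

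In cry2_blue, 22 of 42 members were lower and 5 higher than in cry2_dark, where 30.2% of genes tested fell and 25.8% rose. The median log2 change was -0.39 for the members, against -0.05 for all genes. All 4 B-type kinases and all 3 checkpoint genes fell, with 6 of 13 cyclins, 3 of 5 cytokinesis genes, 3 of 6 Aurora and spindle genes, MYB3R4, CCS52A1 and OSD1. The OSD1 call (-0.35, limma adjusted p = 0.0487) was lost under each omission of 1 library (0.0543 to 0.143). CCS52B, CDC20.1, CDC20.2, MYB3R1 and MYB3R3 rose. The cry2 dark libraries form a single set, so no second dark set stands beside these values. As cry2_dark and cry2_blue differ in header prefix, light and prefix cannot be told apart in these changes.

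CDKB2;1 (AT1G76540), a kinase that peaks from G2 into mitosis, had the strongest fall in wild type when set against WT_dark 1-3. It stood at 13.8, 15.2 and 14.0 TPM in cry2_blue and 11.1, 12.6 and 14.99 TPM in WT_blue. Without light it stood at 29.0, 33.7 and 33.7 TPM in cry2_dark, 32.3, 35.1 and 37.9 TPM in WT_dark 1-3 and 22.0, 18.6 and 16.6 TPM in WT_dark 4-6. Every blue library lay below every dark one of either genotype, but WT_dark 4-6 lay between the blue libraries and WT_dark 1-3. The log2 change was -1.11 ± 0.12 in cry2 (limma, SE, adjusted p = 5.48e-06), and in wild type -1.38 ± 0.12 against WT_dark 1-3 (adjusted p = 6.23e-07) and -0.53 ± 0.13 against WT_dark 4-6 (adjusted p = 0.0115).

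Its near relative CDKB2;2 (AT1G20930) stood at 6.02, 8.55 and 5.47 TPM in cry2_blue and 4.78, 4.91 and 4.85 TPM in WT_blue. The dark libraries had 12.04, 14.0 and 13.4 TPM in cry2_dark, 6.99, 9.49 and 9.25 TPM in WT_dark 1-3 and 5.54, 6.71 and 6.09 TPM in WT_dark 4-6. It fell by 0.90 in cry2 and by 0.70 in wild type against WT_dark 1-3 on the log2 scale, and the change of -0.28 against WT_dark 4-6 was not called (limma, adjusted p = 0.166), although the libraries did not overlap. CDKB1;1 (AT3G54180), a kinase that also acts in the stomatal lineage, stood at 3.63, 4.82 and 3.78 TPM in cry2_blue and 2.95, 3.55 and 4.18 TPM in WT_blue. Without light the values were 9.68, 10.8 and 9.58 TPM in cry2_dark, 7.78, 7.86 and 7.62 TPM in WT_dark 1-3 and 3.78, 6.08 and 4.51 TPM in WT_dark 4-6. The blue libraries of each genotype lay below cry2_dark and WT_dark 1-3 and overlapped WT_dark 4-6: the change was -1.12 ± 0.14 in cry2, -0.95 ± 0.14 in wild type against libraries 1-3 and -0.33 ± 0.17 against libraries 4-6 (log2, SE). CDKB1;2 (AT2G38620) had 4.53, 3.36 and 3.49 TPM in cry2_blue and 2.87, 3.15 and 4.22 TPM in WT_blue. In darkness it stood at 7.69, 7.39 and 8.91 TPM in cry2_dark, 6.95, 6.61 and 6.27 TPM in WT_dark 1-3 and 3.90, 3.67 and 3.45 TPM in WT_dark 4-6. Here too the fall in wild type depended on the dark set, with a log2 change of -0.80 against libraries 1-3 and -0.09 against libraries 4-6 (limma, adjusted p = 0.667).

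Among the cyclins, CYCB2;3 (AT1G20610) stood at 5.49, 5.77 and 4.75 TPM in cry2_blue and 2.87, 2.93 and 2.85 TPM in WT_blue. Dark seedlings had 8.87, 8.84 and 7.84 TPM in cry2_dark, 6.69, 5.57 and 6.60 TPM in WT_dark 1-3 and 5.31, 5.93 and 5.31 TPM in WT_dark 4-6. The WT_blue libraries lay below all others of these 5 sets, and the log2 change was -0.59 ± 0.12 in cry2, -0.90 ± 0.12 in wild type against libraries 1-3 and -0.75 ± 0.12 against libraries 4-6 (limma, SE, adjusted p = 0.000797 for the last). CYCB1;2 (AT5G06150), the cyclin with the highest mean level and with 5 MSA cores, had 8.55, 9.98 and 7.49 TPM in cry2_blue and 4.98, 4.08 and 7.09 TPM in WT_blue. Its dark values were 13, 14.6 and 14.7 TPM in cry2_dark, 10.6, 10.4 and 12.4 TPM in WT_dark 1-3 and 10.7, 11.6 and 7.51 TPM in WT_dark 4-6. It fell in each: by 0.65 in cry2, by 0.95 in wild type against libraries 1-3 and by 0.79 against libraries 4-6 on the log2 scale.

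CYCB1;3 (AT3G11520) stood at 2.93, 3.38 and 2.62 TPM in cry2_blue and 2.53, 2.06 and 3.25 TPM in WT_blue. The dark libraries had 6.29, 7.27 and 8.28 TPM in cry2_dark, 5.36, 4.93 and 6.05 TPM in WT_dark 1-3 and 5.56, 4.24 and 3.38 TPM in WT_dark 4-6. Its change of -1.06 ± 0.16 in cry2 was the strongest fall of a cyclin there, and wild type gave -0.84 and -0.57 against libraries 1-3 and 4-6 (log2). CYCB1;4 (AT2G26760) had 6.91, 6.38 and 6.26 TPM in cry2_blue and 4.63, 5.56 and 6.48 TPM in WT_blue. Without light the values were 10.6, 14.3 and 12.2 TPM in cry2_dark, 11.8, 11.6 and 11.6 TPM in WT_dark 1-3 and 7.48, 6.55 and 5.41 TPM in WT_dark 4-6. Its fall of 0.96 against libraries 1-3 became a change of -0.19 against libraries 4-6 that was not called (limma, adjusted p = 0.36). Of the other cyclins, CYCB2;2, CYCB3;1 and CYCA2;3 fell against both dark sets in wild type, with log2 changes of -0.63, -0.63 and -0.51 against libraries 1-3 and -0.56, -0.62 and -0.74 against libraries 4-6. CYCB1;1, whose promoter drives the common reporter of dividing cells, gave -0.35 in cry2 and -0.24 and -0.25 in wild type against the 2 dark sets, none of them called.

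**Figure D3:**
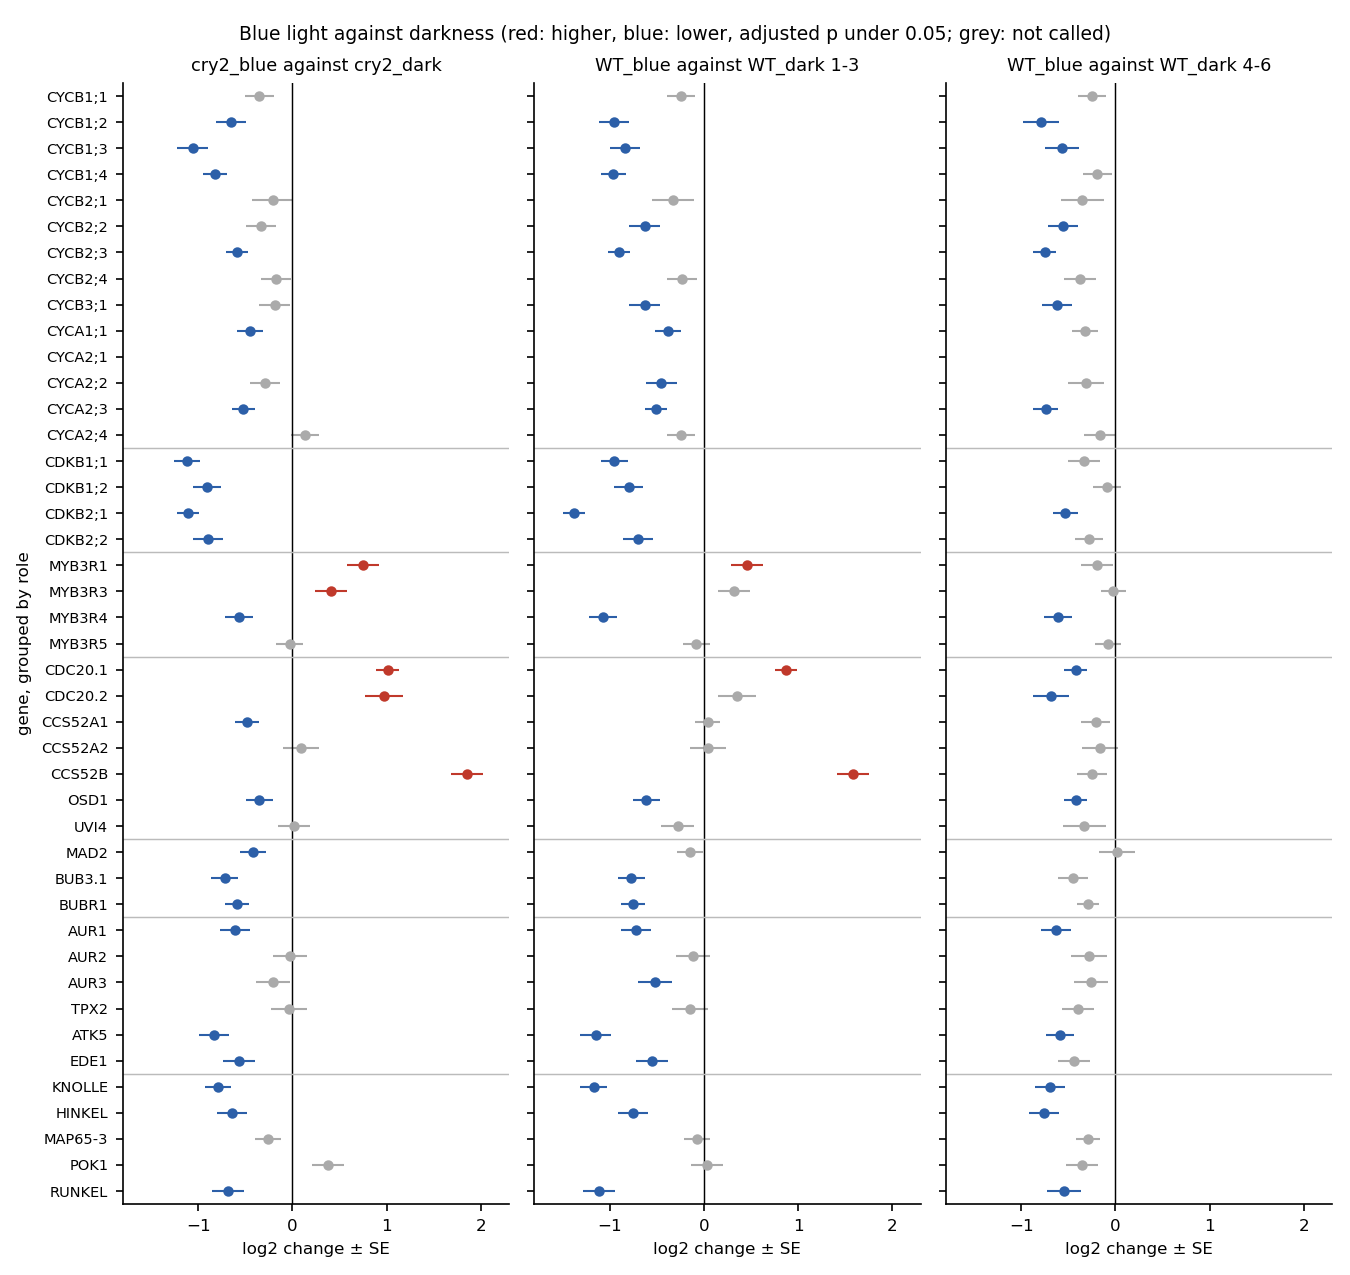
Log2 change of each gene (rows, by role) after blue light in cry2 and in wild type, with wild type set against WT_dark 1-3 and against WT_dark 4-6 (points: limma estimate on log2(TPM + 1), bars: SE, n = 3 per group). The 4 B-type kinases and CCS52B move far less in the right-hand panel, where CCS52B changes by -0.25, than in the middle one, where it changes by 1.58.

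KNOLLE (AT1G08560), the cytokinesis syntaxin, stood at 20.13, 20.8 and 21.7 TPM in cry2_blue and 9.55, 11.6 and 16.3 TPM in WT_blue. In darkness it stood at 37.3, 36.6 and 36.5 TPM in cry2_dark, 31.2, 28.0 and 27.3 TPM in WT_dark 1-3 and 18.5, 24.0 and 18.7 TPM in WT_dark 4-6. The blue libraries lay below the dark ones in wild type with either set, and the log2 change was -0.79 ± 0.14 in cry2, -1.17 ± 0.14 in wild type against libraries 1-3 and -0.69 ± 0.16 against libraries 4-6 (limma, SE, adjusted p = 0.00836 for the last). HINKEL, a kinesin that activates the cytokinetic MAP kinase cascade, and RUNKEL, a microtubule-associated protein of the phragmoplast, also fell in all 3, HINKEL with log2 changes of -0.64, -0.75 and -0.76 and RUNKEL with -0.68, -1.11 and -0.55. MAP65-3 (AT5G51600), which bundles microtubules at the phragmoplast midline, and POK1, a kinesin that guides it to the division site, were called in none of the 3; MAP65-3 gave -0.26, -0.07 and -0.29.

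ATK5 (AT4G05190), a minus-end-directed kinesin of the spindle, stood at 4.12, 4.76 and 4.48 TPM in cry2_blue and 2.82, 2.55 and 3.53 TPM in WT_blue. Dark seedlings had 7.51, 9.58 and 9.01 TPM in cry2_dark, 8.82, 6.06 and 8.78 TPM in WT_dark 1-3 and 5.13, 5.62 and 4.21 TPM in WT_dark 4-6. It fell by 0.83 in cry2, by 1.15 in wild type against libraries 1-3 and by 0.59 against libraries 4-6 on the log2 scale. AUR1 (AT4G32830), an Aurora kinase of the spindle and cell plate, had 6.20, 8.53 and 5.19 TPM in cry2_blue and 3.87, 3.78 and 5.00 TPM in WT_blue. Its dark values were 10.9, 10.2 and 10.3 TPM in cry2_dark, 6.83, 7.53 and 8.35 TPM in WT_dark 1-3 and 6.60, 8.10 and 6.48 TPM in WT_dark 4-6. AUR1 fell in each, with log2 changes of -0.61, -0.72 and -0.63, whereas AUR2, of the same Aurora class, gave -0.03, -0.12 and -0.28 and was called in none. TPX2, a spindle assembly factor, was not called in any of the 3 either, and EDE1, a microtubule-associated protein, fell in cry2 and against libraries 1-3 with log2 changes of -0.57 and -0.55 and was not called against libraries 4-6 at -0.44.

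Of the spindle checkpoint genes, MAD2 (AT3G25980), the one with the highest level, had 24.3, 18.3 and 17.6 TPM in cry2_blue and 20.09, 20.7 and 20.8 TPM in WT_blue. The dark libraries had 24.2, 31.7 and 25.2 TPM in cry2_dark, 24.2, 20.12 and 24.5 TPM in WT_dark 1-3 and 26.4, 14.7 and 21.2 TPM in WT_dark 4-6. Libraries overlapped in each comparison; the fall of 0.42 in cry2 was called (limma, adjusted p = 0.0206), and the wild-type changes of -0.15 and 0.02 were not. The MAD2 call in cry2 was lost without cry2_dark 2, cry2_blue 2 or cry2_blue 3, with adjusted p of 0.071 to 0.0984. BUB3.1 and BUBR1, which hold anaphase until kinetochores are attached, fell in cry2 by 0.72 and 0.59 and in wild type against libraries 1-3 by 0.77 and 0.75, but their changes of -0.45 and -0.29 against libraries 4-6 were not called.

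The genes that rose were those for APC/C activators and MYB3R factors, and in wild type each depended on the dark set. CCS52B (AT5G13840), an APC/C activator expressed in mitosis, stood at 21.4, 17.2 and 17.6 TPM in cry2_blue and 14.4, 15.6 and 14.7 TPM in WT_blue. Without light the values were 3.14, 5.24 and 5.29 TPM in cry2_dark and 3.61, 5.00 and 4.41 TPM in WT_dark 1-3, but it had 19.5, 18.4 and 15.9 TPM in WT_dark 4-6. The blue libraries thus lay above cry2_dark and WT_dark 1-3 without overlap, while every WT_blue library was below every WT_dark 4-6 library. The log2 change was 1.85 ± 0.17 in cry2 (limma, SE, adjusted p = 1.61e-06), and in wild type 1.58 ± 0.17 against libraries 1-3 (adjusted p = 4.53e-06) and -0.25 ± 0.16 against libraries 4-6 (adjusted p = 0.257).

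CDC20.1 (AT4G33270), the main CDC20 activator of the APC/C, stood at 28.3, 26.1 and 21.1 TPM in cry2_blue and 15.1, 17.3 and 15.4 TPM in WT_blue. In darkness it stood at 11.2, 12.3 and 12.4 TPM in cry2_dark, 8.40, 8.04 and 8.29 TPM in WT_dark 1-3 and 21.1, 24.0 and 19.9 TPM in WT_dark 4-6. It rose by 1.01 in cry2 and by 0.87 in wild type against libraries 1-3 on the log2 scale, and fell by 0.42 against libraries 4-6 (limma, adjusted p = 0.0245). CDC20.2 (AT4G33260) had 15.9, 12.6 and 9.96 TPM in cry2_blue and 8.47, 6.79 and 5.18 TPM in WT_blue. Dark seedlings had 4.71, 6.47 and 6.77 TPM in cry2_dark, 4.80, 4.25 and 6.18 TPM in WT_dark 1-3 and 10.8, 12.3 and 10.97 TPM in WT_dark 4-6. It rose in cry2 by 0.97, was not called in wild type against libraries 1-3 at 0.35 and fell by 0.68 against libraries 4-6. CDC20.1 and CDC20.2 lie 619 bases apart on chromosome 4 and share 95.3% of their coding bases, so reads may be split between them and each value is uncertain.

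MYB3R1 (AT4G32730) stood at 16.0, 15.3 and 11.5 TPM in cry2_blue and 11.9, 13.3 and 8.62 TPM in WT_blue. Its dark values were 7.18, 7.92 and 8.90 TPM in cry2_dark, 7.67, 6.95 and 8.91 TPM in WT_dark 1-3 and 12.2, 11.9 and 14.4 TPM in WT_dark 4-6. Its rise of 0.75 in cry2 was without overlap (limma, adjusted p = 0.00212); in wild type WT_blue 3 lay within the range of WT_dark 1-3, and the change was 0.46 against libraries 1-3 (adjusted p = 0.0312) and -0.19 against libraries 4-6. The wild-type call was lost without WT_dark 1, WT_dark 2, WT_blue 1 or WT_blue 2 (adjusted p of 0.0739 to 0.13) and with rRNA and organelle loci removed (0.0694). MYB3R4, the activator, ran the other way and fell by 0.57 in cry2, by 1.07 in wild type against libraries 1-3 and by 0.61 against libraries 4-6 on the log2 scale. The repressor MYB3R3 rose by 0.41 in cry2 with an adjusted p of 0.0482, a call lost under each omission of 1 library (0.0547 to 0.177), and MYB3R5 was called in none. CCS52A1 (AT4G22910), the APC/C activator tied to endoreduplication, had 6.59, 5.64 and 5.56 TPM in cry2_blue and 5.89, 6.14 and 6.25 TPM in WT_blue. The dark libraries had 7.33, 8.62 and 10.2 TPM in cry2_dark, 5.5, 5.83 and 6.41 TPM in WT_dark 1-3 and 6.30, 6.77 and 8.79 TPM in WT_dark 4-6. It fell by 0.48 on the log2 scale in cry2 and was not called in wild type, at 0.04 and -0.21 against libraries 1-3 and 4-6. The genotype difference in that response had an adjusted p of 0.147.

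**Figure D4:**
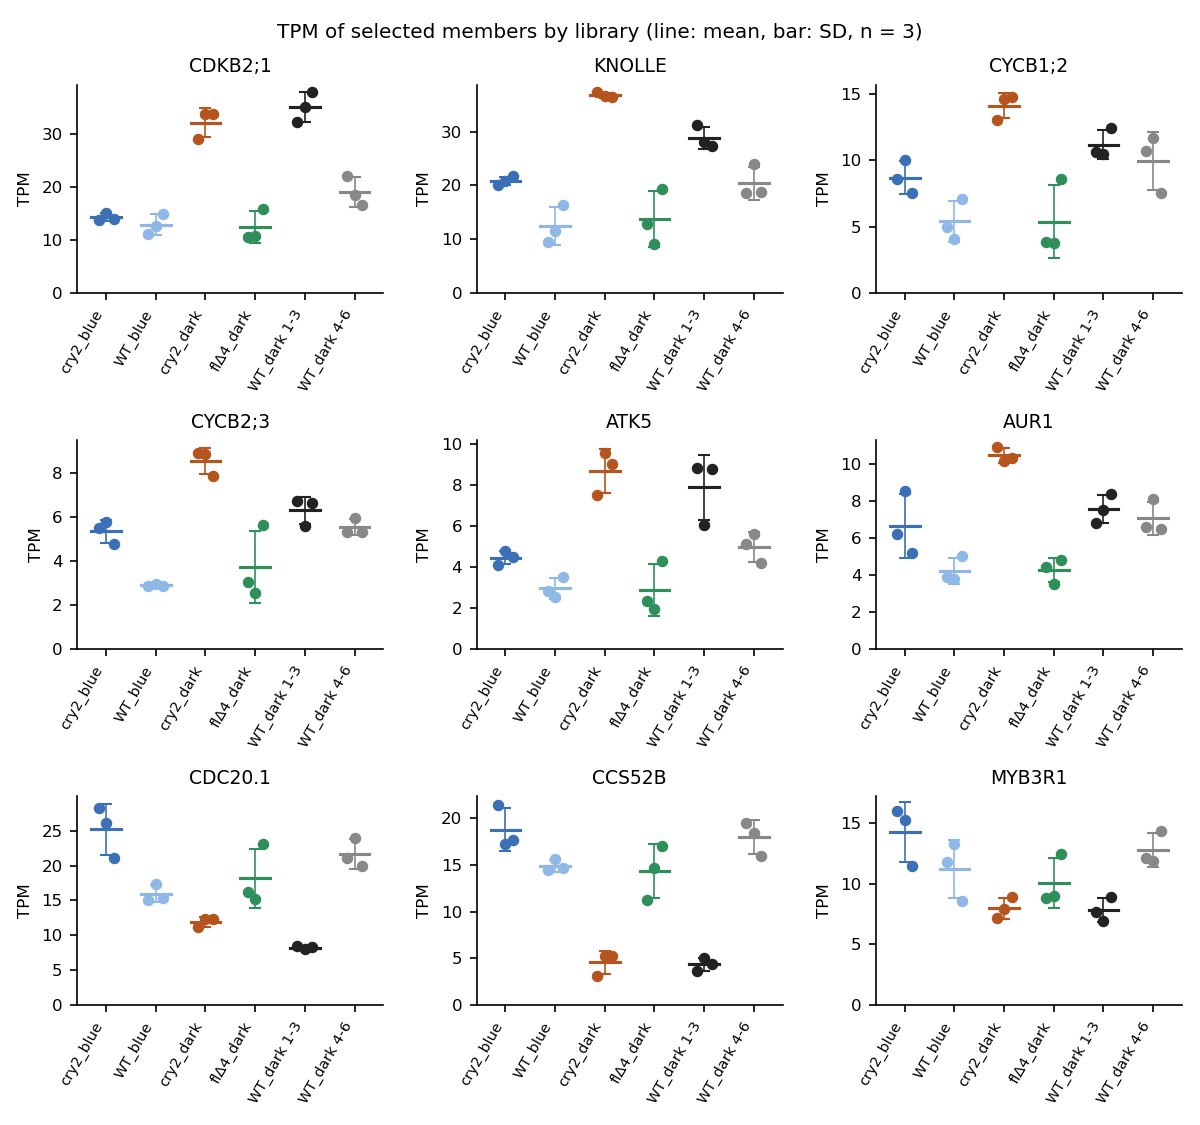
TPM in each library (points) with mean (line) and SD (bars, n = 3) for 9 genes in 6 sets of libraries. For CDKB2;1 the blue sets and flΔ4_dark sit at 10.5 to 15.9 TPM; for CCS52B the cry2_dark and WT_dark 1-3 libraries sit at 3.14 to 5.29 TPM and all others at 11.3 TPM or more.

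Some genes that mark the zones where seedling cells divide were called after blue light, as were many of all genes tested. In wild type 32.9% of all genes fell and 28.7% rose against WT_dark 1-3, and in cry2 30.2% fell and 25.8% rose. Against WT_dark 4-6, 4 of 11 markers fell and 0 rose, where 3989 of 19888 genes fell and 1805 rose. With so few markers, these calls are not a result about the markers alone. The 6 stomatal lineage markers had sums between 10.09 and 19.7 TPM in cry2_blue and between 2.68 and 9.81 TPM in WT_blue. In darkness the sum lay between 21.7 and 26.1 TPM in cry2_dark, between 20.0 and 21.7 TPM in WT_dark 1-3 and between 11.3 and 28.6 TPM in WT_dark 4-6, and only MUTE, in WT_blue 3, was at 0. Of the 4 tested in the blue-light fits, TMM and SPCH fell in wild type against either dark set and TMM fell in cry2. The 6 shoot apex markers had sums between 70.1 and 74.8 TPM in cry2_blue and between 70.03 and 86.7 TPM in WT_blue. In darkness the sum lay between 62.4 and 75.4 TPM in cry2_dark, between 73.3 and 83.7 TPM in WT_dark 1-3 and between 80.6 and 94.2 TPM in WT_dark 4-6. The shoot apex sums thus overlapped between light and dark in cry2 and in wild type with either dark set. STM and CLV1 fell after blue light in cry2 and in wild type against either dark set. ANT rose in cry2, while in wild type its change was 0.46 against libraries 1-3, a call, and -0.24 against libraries 4-6, not called (limma, adjusted p = 0.208). KNAT1 likewise rose by 0.60 against libraries 1-3 and was not called at 0.08 against libraries 4-6. The 5 root meristem markers had sums between 23.7 and 27.1 TPM in cry2_blue and between 21.2 and 22.9 TPM in WT_blue. In darkness the sum lay between 23.0 and 28.4 TPM in cry2_dark, between 26.2 and 30.2 TPM in WT_dark 1-3 and between 23.4 and 25.7 TPM in WT_dark 4-6, most of it SCR, which fell in wild type against libraries 1-3 (-0.33) and was not called against libraries 4-6 (-0.12). The part of these cell types in the fall of the mitotic genes was not tested.

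The 2 dark wild-type sets, which only their numbers tell apart in the labels, differed in 14 of 42 members. In WT_dark 1-3 relative to WT_dark 4-6, 10 were higher and 4 lower, where 21.1% of the 19703 genes tested were higher and 29.8% lower. The 10 were all 4 B-type kinases, CYCB1;4, KNOLLE, ATK5, BUBR1, MYB3R4 and RUNKEL, with log2 differences of 0.42 to 0.86, and the 4 were CCS52B at -1.83, CDC20.1 at -1.29, CDC20.2 at -1.03 and MYB3R1 at -0.64. Without WT_dark 3 the count of higher members was 5, and without WT_dark 6 it was 6; the 4 lower members were called under each omission. The rRNA values given above differ between these sets without overlap, and their part in the difference was not tested.

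In darkness, most mitotic genes had slightly higher mean levels in cry2 than in WT_dark 1-3, and few were called; genotype and header prefix cannot be told apart here. CDC20.1, CCS52A1, CDKB2;2 and MAP65-3 rose, with log2 differences of 0.49, 0.48, 0.57 and 0.51, and no member fell. Of the 19985 genes tested 12.9% were called, 2001 higher and 577 lower. The 4 of 42 members called higher were thus about the same share as among all genes, so this count is not a result about the members alone. Adjusted p-values by limma were 0.0176 to 0.0355 for the 4. An unadjusted p under 0.05 in either direction was found for 14 of 42, and the share of all genes at that threshold is not given here. The members' median was 0.22 against 0.10 for all genes, and with TPM rescaled without rRNA and organelle loci, or by median ratios, the median of all genes was 0.01, that of the members 0.14, and CDC20.1 was the 1 call. The 4 calls became 0 without WT_dark 1, WT_dark 2, cry2_dark 2 or cry2_dark 3, and 2 without cry2_dark 1.

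Against WT_dark 4-6 the same cry2 libraries gave 18 higher and 5 lower members of 42, where 40.7% of genes tested were called, 4084 higher and 4020 lower. The B-type kinases then rose by 0.73 to 0.99, and CCS52B fell by 1.79, CDC20.2 by 0.83, CDC20.1 by 0.80, MYB3R1 by 0.62 and MYB3R3 by 0.36 on the log2 scale. CDC20.1 therefore has opposite directions against the 2 sets. MAP65-3, at 5.80, 6.14 and 5.76 TPM in cry2_dark, against 3.72, 3.27 and 4.63 TPM in WT_dark 1-3 and 4.72, 4.13 and 5.01 TPM in WT_dark 4-6, was above every dark wild-type library; its difference from libraries 4-6 was 0.30 and not called (limma, adjusted p = 0.0888). Of the 4 members called against libraries 1-3, CDKB2;2 alone was also called higher against libraries 4-6, by 0.57 and 0.99 on the log2 scale.

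After blue light, most mitotic genes had higher mean levels in cry2 than in wild type. CYCB2;3, KNOLLE, CDC20.1 and CDC20.2 were called higher in cry2_blue than in WT_blue, with log2 differences of 0.70 ± 0.12, 0.73 ± 0.14, 0.62 ± 0.12 and 0.82 ± 0.20 (limma, SE, adjusted p of 0.0108 to 0.0476), and no member was lower, where 2.61% of genes tested were higher and 0.736% lower. The blue groups shared header prefix and had overlapping rRNA values, 7347 to 9968 TPM in cry2_blue and 8237 to 13617 TPM in WT_blue. In 24 of 42 every cry2_blue library lay above every WT_blue library, where 18.9% of genes tested did so. An unadjusted p under 0.05 was found for 22 members, and the share of all genes at that threshold is not given here. The median difference was 0.33, against 0.11 for all genes tested.

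By role, the libraries did not overlap for 7 of 13 cyclins, 4 of 5 cytokinesis genes, 4 of 6 Aurora and spindle genes, 5 of 7 APC/C genes, 2 of 3 checkpoint genes, 1 of 4 MYB3R genes and 1 of 4 B-type kinases. HINKEL averaged 3.64 ± 0.348 TPM in cry2_blue and 2.07 ± 0.125 TPM in WT_blue, and MYB3R4 averaged 2.29 ± 0.302 TPM in cry2_blue and 1.15 ± 0.106 TPM in WT_blue (SD, n = 3 each), with adjusted p of 0.0574 and 0.0521 by limma. The kinases CDKB1;1, CDKB1;2 and CDKB2;1 differed by 0.16, 0.12 and 0.15, with overlapping libraries. The 4 calls became 2 without WT_blue 2 and 1 without cry2_blue 2, and CDC20.2 was lost under 9 of 12 alternatives (adjusted p of 0.0509 to 0.136). The summed stomatal markers were also higher in cry2_blue, with none of the 4 tested called, and their part was not tested.

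Whether the light response itself differed between genotypes was tested as an interaction, blue minus dark in cry2 less blue minus dark in wild type. No member was called in either direction, where 1.30% of genes tested were higher and 1.51% lower; CCS52A1 at -0.52 and MYB3R4 at 0.50 had an unadjusted p under 0.05 by limma, and limma without trend or robust moderation also called 0. CYCB2;3 gave 0.32 ± 0.17 and KNOLLE 0.38 ± 0.20 (log2, SE). With WT_dark 4-6 as the dark wild type, 5 members were higher (14.6% of genes) and 4 lower (7.89%). The 4 were the B-type kinases, at -0.58 to -0.82, and the 5 were CCS52B, CDC20.2, CDC20.1, MYB3R1 and POK1, at 0.73 to 2.10, so this test rests on the dark set.

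Dark flΔ4 seedlings had lower mean levels of nearly all mitotic genes than WT_dark 4-6, but no member was called. The log2 difference was negative for 41 of 42, with a median of -0.46 against -0.12 for all genes tested, and limma called 0 higher and 0 lower, where 0.222% of 19411 genes were higher and 0.0824% lower; limma without trend or robust moderation also called 0. An unadjusted p under 0.05 by limma was found for 12 members, all lower. The share of all genes at that threshold is not given here, so the count is not a result about the members alone. BUB3.1, at -0.79, had the smallest adjusted p by limma (0.108). In 14 of 42 every flΔ4_dark library lay below every WT_dark 4-6 library, where 15.5% of genes tested did so.

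Library 3 of flΔ4_dark stood apart from libraries 1 and 2. FKD1 was at 4.06, 3.70 and 5.76 TPM in flΔ4_dark 1, 2 and 3, against 5.67, 8.76 and 5.67 TPM in WT_dark 4-6, so library 3 was within the wild-type range. The other mutated genes were not analysed here, so the labelled genotype of these libraries, library 3 included, was not tested, and counts of calls are given with and without it. In flΔ4_dark 1, 2 and 3, 38, 41 and 15 of the 43 genes lay below all of WT_dark 4-6 (88.4%, 95.3% and 34.9%), where 51.9%, 53.4% and 21.9% of all genes tested did. CYCB1;2 shows the pattern, at 3.81, 3.74 and 8.57 TPM in flΔ4_dark, against 10.7, 11.6 and 7.51 TPM in WT_dark 4-6. ATK5 had 2.32, 1.97 and 4.31 TPM in flΔ4_dark, against 5.13, 5.62 and 4.21 TPM in WT_dark 4-6, and KNOLLE had 12.8, 9.03 and 19.4 TPM in flΔ4_dark, against 18.5, 24.0 and 18.7 TPM in WT_dark 4-6. For all 3 genes libraries 1 and 2 lay below the wild type and library 3 within its range.

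AUR1 was low in every mutant library, at 4.42, 3.53 and 4.79 TPM in flΔ4_dark, against 6.60, 8.10 and 6.48 TPM in WT_dark 4-6. CDKB2;1 was likewise below the wild type throughout, at 10.5, 10.8 and 15.9 TPM in flΔ4_dark, against 22.0, 18.6 and 16.6 TPM in WT_dark 4-6. CYCB1;3 also lay below, at 2.64, 1.94 and 2.43 TPM in flΔ4_dark, against 5.56, 4.24 and 3.38 TPM in WT_dark 4-6. These 3 had log2 differences of -0.62, -0.59 and -0.68 with adjusted p of 0.137, 0.151 and 0.156 by limma. CDKB1;2, at 3.83, 2.92 and 4.47 TPM in flΔ4_dark and 3.90, 3.67 and 3.45 TPM in WT_dark 4-6, was the 1 tested member without a negative difference, at 0.01.

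The other kinase, cyclin and CDC20 genes also varied among the 3 libraries. CDKB1;1 had 1.83, 2.36 and 4.17 TPM in flΔ4_dark, against 3.78, 6.08 and 4.51 TPM in WT_dark 4-6, and CDKB2;2 had 3.75, 3.43 and 5.37 TPM in flΔ4_dark, against 5.54, 6.71 and 6.09 TPM in WT_dark 4-6. CYCB2;3 had 3.02, 2.55 and 5.60 TPM in flΔ4_dark, against 5.31, 5.93 and 5.31 TPM in WT_dark 4-6, and CYCB1;4 had 5.5, 4.87 and 6.01 TPM in flΔ4_dark, against 7.48, 6.55 and 5.41 TPM in WT_dark 4-6. CDC20.1 had 16.3, 15.2 and 23.0 TPM in flΔ4_dark, against 21.1, 24.0 and 19.9 TPM in WT_dark 4-6, and CDC20.2 had 6.19, 5.17 and 12.4 TPM in flΔ4_dark, against 10.8, 12.3 and 10.97 TPM in WT_dark 4-6. Libraries 1 and 2 lay below the wild-type range for all 6 except CYCB1;4, where library 1 was within it, and library 3 was within or above the range for all but CDKB2;2. CCS52B had 11.3, 14.7 and 17.0 TPM in flΔ4_dark, against 19.5, 18.4 and 15.9 TPM in WT_dark 4-6. MYB3R1 had 8.80, 9.01 and 12.5 TPM in flΔ4_dark, against 12.2, 11.9 and 14.4 TPM in WT_dark 4-6, and both genes had library 3 within the wild-type range. MAD2 had 23.0, 12.7 and 21.9 TPM in flΔ4_dark, against 26.4, 14.7 and 21.2 TPM in WT_dark 4-6, with only library 2 below the wild type. MAP65-3 had 3.58, 3.33 and 3.58 TPM in flΔ4_dark, against 4.72, 4.13 and 5.01 TPM in WT_dark 4-6, without overlap. CCS52A1 overlapped the wild type in each library, at 6.49, 6.59 and 6.45 TPM in flΔ4_dark and 6.30, 6.77 and 8.79 TPM in WT_dark 4-6.

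**Figure D5:**
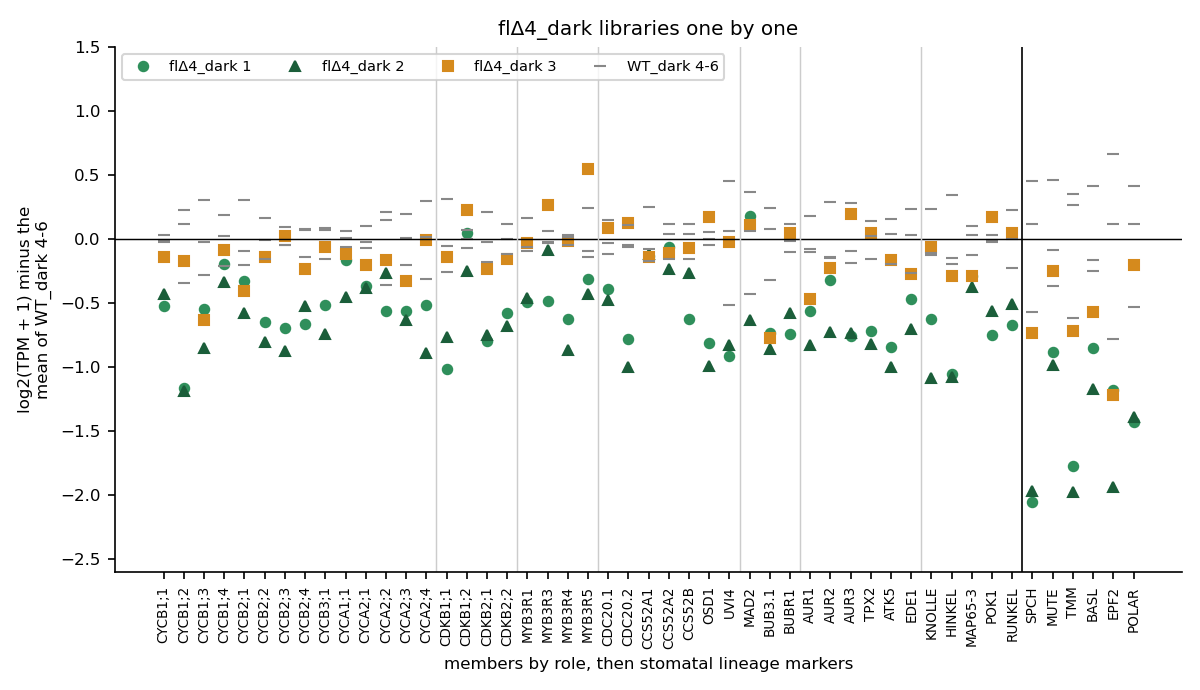
Log2(TPM + 1) of each flΔ4_dark library (coloured points) and each WT_dark 4-6 library (grey bars) minus the mean of WT_dark 4-6, for the 43 genes by role and the 6 stomatal lineage markers at the right. Libraries 1 and 2 lie mostly below the grey bars and library 3 mostly among them.

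Without flΔ4_dark 3, 14 of 42 members fell and 0 rose, where 11.7% of 19357 genes tested fell and 3.48% rose. The median was -0.63 against -0.21 for all genes, and leaving out any other single library gave 0 calls. Library 3 stood apart in these same genes, and the fit without it rests on flΔ4_dark 1 and 2 alone. Its calls therefore describe those libraries and are no test of the mutant. The 14 were CYCB1;2, CYCB2;2, CYCB2;3, CDKB1;1, CDKB2;1, CDKB2;2, CDC20.2, OSD1, BUB3.1, AUR1, TPX2, ATK5, KNOLLE and HINKEL, with log2 differences of -0.63 to -1.18. The 6 stomatal lineage markers summed to 3.31, 1.98 and 10.2 TPM in flΔ4_dark 1, 2 and 3, against 11.3, 28.6 and 21.6 TPM in WT_dark 4-6, with MUTE at 0 in flΔ4_dark 2. All 6 lay below WT_dark 4-6 in libraries 1 and 2 and 4 of 6 did in library 3. Without library 3 SPCH, TMM and POLAR fell by 2.01, 1.88 and 1.41, and BASL and EPF2 were not called. The root meristem marker SCR and the shoot apex marker ANT fell as well, by 0.56 and 0.73. Of the 11 markers of the 3 zones tested there, 5 were lower and 0 higher. The root meristem markers summed to 16.7, 15.6 and 23.0 TPM in flΔ4_dark and 23.4 to 25.7 TPM in WT_dark 4-6, with PLT2 at 0 in flΔ4_dark 2, and the shoot apex markers to 75.3, 72.0 and 93.8 TPM in flΔ4_dark and 80.6 to 94.2 TPM in WT_dark 4-6. Transcripts of the rRNA loci took 31348, 15784 and 11755 TPM in flΔ4_dark 1, 2 and 3, against 6550 to 7907 TPM in WT_dark 4-6. The part of these in the result was not tested.

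Against WT_dark 1-3 the flΔ4 libraries gave 16 lower and 2 higher members of 41 (25.4% of 19686 genes were lower and 24.4% higher), with all 4 B-type kinases lower by 0.70 to 1.45 and CCS52B and CDC20.1 higher by 1.51 and 1.03 on the log2 scale. With all 6 dark wild-type libraries 1 member was lower.

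A second list of 49 genes of mitosis, none of them among the 43, was read in the same fits. In wild type after blue light 23 of 49 fell and 12 rose against WT_dark 1-3, where 32.9% of all genes fell and 28.7% rose. Against WT_dark 4-6, 23 fell and 0 rose, where 3989 of 19888 genes fell and 1805 rose. In cry2 17 of 49 fell and 7 rose, where 30.2% of all genes fell and 25.8% rose, so the share that rose was under that of all genes in each. CDKA;1, the kinase used throughout the cell cycle, averaged 36.2 ± 2.99 TPM in WT_blue, against 71.6 ± 2.16 TPM in WT_dark 1-3 (SD, n = 3 each), and fell by 0.96 on the log2 scale, and by 0.39 against WT_dark 4-6. In cry2 it averaged 41.3 ± 2.63 TPM after blue light, against 70.9 ± 2.56 TPM in darkness (SD, n = 3 each), and fell by 0.77. TON2, needed for the preprophase band, fell in wild type by 0.74 against libraries 1-3 and by 0.31 against libraries 4-6, and CKS2, a kinase-binding subunit, by 1.11 in cry2. In cry2, ESP, the separase that splits sister chromatids, rose by 1.55 and POK2, a kinesin of the division site, by 1.47. In wild type ESP rose by 1.24 against libraries 1-3 but was at -0.39 against libraries 4-6, not called (limma, adjusted p = 0.063), with every WT_blue library below every WT_dark 4-6 library. APC10, an APC/C subunit, rose by 0.82 against libraries 1-3 and was at -0.07 against libraries 4-6, not called.

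Between the dark sets, 5 of 49 were higher and 18 lower in WT_dark 1-3 than in WT_dark 4-6, where 21.1% of all genes were higher and 29.8% lower. CDKA;1 and CKS2 were higher by 0.58 and 0.70, and ESP and SGO2, a shugoshin that protects cohesion, were at -1.63 and -1.29 (log2). In darkness cry2 had 5 higher and 0 lower of 49 against WT_dark 1-3, where 2001 of 19985 genes were higher, about the same share; the 5 included the mitotic chromosome protein gene 3xHMG-box2 at 0.67 and the microtubule bundler MAP65-1 at 0.42. Against WT_dark 4-6, 10 of 49 were higher and 8 lower, where 4084 of 19888 genes were higher and 4020 lower, and neither 3xHMG-box2 (-0.27) nor MAP65-1 (0.06) was called. After blue light TOPII, topoisomerase II, was the 1 gene of 49 higher in cry2_blue than in WT_blue, by 0.63, and none was lower. Of all genes tested, 2.61% were higher and 0.736% lower, so this count was near the share of all genes. The interaction and flΔ4_dark against WT_dark 4-6 gave no call by limma among 49 and 48 genes. At an unadjusted p under 0.05 there were 6 and 13, and the share of all genes at that threshold is not given here. Without flΔ4_dark 3, 9 of 47 were lower and 0 higher, where 11.7% of genes were lower. With the other dark set, the interaction gave 8 higher and 1 lower of 49 (14.6% and 7.89% of all genes), and flΔ4_dark gave 6 higher and 12 lower of 48 (24.4% and 25.4%).

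The number of MSA cores was set beside the changes. In wild type after blue light, against WT_dark 1-3, the 15 tested members with at least 2 copies had a median log2 change of -0.33, the 10 with 1 copy -0.66 and the 17 with none -0.45. The 3 members that rose there, CCS52B, CDC20.1 and MYB3R1, held no core in this window, but none of them rose against WT_dark 4-6. Of the 4 B-type kinases, which all fell, only CDKB2;2 held one. In cry2 after blue light 5 members rose, and 2 of them, CDC20.2 and MYB3R3, held 2 copies each. The medians there were -0.35, -0.57 and -0.29 for at least 2, 1 and no copies. After blue light in cry2 against wild type, medians were 0.33, 0.50 and 0.29 for at least 2, 1 and no copies. Genes with and without the core thus overlapped in their changes in each of these comparisons.

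Annotated neighbours limit some values. In TAIR10.1, 18 of the 43 genes overlap another gene, in 17 cases on the opposite strand; the kit keeps strand, but whether counting used it is not given in the sources used here. After CDC20.1 and CDC20.2, the closest pairs in coding sequence were CDKB2;1 with CDKB2;2 at 86.1% and CDKB1;1 with CDKB1;2 at 85.4% of aligned bases.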

How the data were processed

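RNA-seq of whole seedlings was deposited as 1 table per library. Per the submitters' processing notes, fastp, HISAT2, StringTie and the TAIR10 build were used, with tool versions not given in the sources used here. Deposited values are TPM by the authors, and no other unit was used. TPM are shares of a library, so an abundant RNA that changes moves all other values, and depth and counting error are unknown.

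Linear models were fitted with limma 3.58.1 (R 4.3.3) on log2(TPM + 1), with trend and robust moderation, for genes averaging at least 1 TPM in the libraries of a fit; a log2 change on this scale understates that of low genes. One fit held WT_dark 1-3, cry2_dark and both blue groups, another flΔ4_dark and WT_dark 4-6, and the last the 6 WT_dark libraries. Calls had a Benjamini-Hochberg adjusted p under 0.05 over all genes tested. Errors are SE for log2 changes and SD for TPM. The code was tested on simulated data. The loci and gene lists were chosen with earlier results of these data known. Genes with values in every library were up to 4 called members with the smallest p per direction and comparison, plus the most highly expressed member of each role; of the second list up to 2 called genes per direction and comparison were named. Alternatives covered pseudocount, filter, scaling, moderation, dark set, block and left-out libraries. For the second list and the zone markers, the other dark set was added after seeing the data. Sequences come from RefSeq TAIR10.1, matched by locus identifier; Biopython 1.88 aligned coding sequences. Proteins were not analysed here.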

Additional observations from a re-analysis of the deposited data

Results flagged for a closer look

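CYCA2;2, an A-type cyclin gene, stood at 2.08 TPM in WT_dark 6, a value below those of the other 5 dark wild-type libraries. Their lowest was 3.15 TPM and their highest 3.79 TPM. The gap took 0.626 of the whole range. The 43 genes were each examined this way over the 6 WT_dark libraries, and chance marks about 1 in 20 such groups. With 43 genes examined, 1 mark is no more than chance alone would give. The 6 libraries also join the 2 dark sets, which differed in many genes.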

How the results depend on the processing

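Pseudocount 0.1, no filter, scaling and moderation left the direction of every call as it was. Counts of calls moved past 1.5 times as follows. Where no share of all genes stands above for a setting, none is given, and the counts show only how calls depend on it. With WT_dark 4-6 as dark wild type, WT_blue gave 0 higher members, cry2_dark 18 higher and 5 lower, and the interaction 5 higher and 4 lower; with all 6 dark libraries, WT_blue gave 0 higher and cry2_dark 2 higher. In cry2_dark against WT_dark 1-3, higher calls were 1 with rRNA and organelle loci removed, 1 with median-ratio scaling and 7 without trend or robust moderation. flΔ4_dark gave 2 higher and 16 lower against WT_dark 1-3, and 1 lower against all 6. Reversed against WT_dark 4-6 were MYB3R1 (-0.19), CDC20.1 (-0.42) and CCS52B (-0.25) in WT_blue and CDC20.1 in cry2_dark (-0.80), the last also against all 6 (-0.16). The cause was not tested.

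Leaving out 1 library gave 0 to 4 higher members in cry2_dark against WT_dark 1-3, 1 to 5 higher in cry2_blue against WT_blue, 0 to 1 higher for the interaction, 0 to 14 lower in flΔ4_dark and 5 to 9 higher in WT_dark 1-3 against WT_dark 4-6. For 18 pairs of libraries sharing a replicate number, departures from group means were correlated. Whole levels correlated at up to 0.9898 between libraries (log2). Of the 18 pairs, 16 correlated at 0.1 or less (-0.06 to 0.23) and 4 correlated best with their own number. WT_blue and cry2_blue gave the highest values, 0.23 for number 2 and 0.22 for number 3. No label says that the numbers pair the libraries, and so few libraries per group cannot settle it. With a replicate block, WT_blue gave 3 higher and 23 lower members, cry2_blue against cry2_dark 4 and 21, and cry2_dark 3 and 0. The block gave 3 and 0 for cry2_blue against WT_blue, 0 and 0 for the interaction, and 2 and 18 for flΔ4_dark against WT_dark 1-3. Shares of all genes called with the block, or with 1 library left out other than flΔ4_dark 3, are not given here. Such counts show only how calls vary and are not a result about the members. For flΔ4_dark against WT_dark 4-6 no paired analysis was possible, because these libraries share no number. With depth unknown, genes near 1 TPM such as CYCB3;1 and EDE1 are the least certain.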

Other observations

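Each gene's highest and lowest library was noted over all 18. The highest lay in cry2_dark for 26 of the 43 mitotic genes (60.5%), against 25.0% of the 19927 genes averaging at least 1 TPM. In cry2_blue it lay for 7 (16.3%), against 14.9% of all genes, among them CCS52B, CDC20.1, CDC20.2 and MYB3R1. The lowest lay in flΔ4_dark for 29 of 43 (67.4%), against 26.4% of all genes. In WT_blue it lay for 6 (14%), a smaller share than the 22.8% of all genes. These counts describe single libraries and carry no test.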
